A study of Mus musculus with 6 samples.

Results

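The NF-kB pathway and its feedback genes were followed as a list of 44 named genes in lipopolysaccharide-treated bone marrow-derived macrophages labelled as Cd74 wild type or knockout. Members were the rows of the deposited TPM table whose gene symbol was on the list. All 44 had a row among the 17217 rows, and all 44 passed the filter on low values that left 13034 rows for testing. TPM is a read count scaled by gene length and library. The lengths that fitted the members were all annotated exon bases of a gene (union exon lengths), such as 19078 for Ikbkb and 1610 for Nfkbia. Levels compared between genes below depend on these lengths, which need not be those of the transcripts present.

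The Control group held 3 libraries labelled Con for genotype (CD74+/+ in the protocol) and the Knockout group 3 libraries labelled KO (CD74-/-). Per the labels' protocols, femur marrow of mice aged 8 weeks was cultured in M-CSF (30 ng/mL), which drives macrophage growth, and exposed for 24 h to lipopolysaccharide (LPS, 100 ng/mL). Both groups received LPS, and no untreated group was analysed here, so no value below is an induction by LPS. The protocol text printed with all 6 libraries speaks of WT mice, and genotype was taken from the titles and genotype labels. The labels put the Control libraries in batch 1 and the Knockout libraries in batch 2, and effects of batch and of genotype cannot be told apart anywhere below. Nothing in the labels says that replicates were separate mice or cultures, and the p-values measure only the spread between these libraries, which may be technical.

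NF-kB is a family of dimeric transcription factors built from 5 subunits. In resting cells IkB proteins hold the dimers in the cytoplasm. Toll-like receptor 4, the LPS receptor, activates the IkB kinase (IKK) complex through adaptors, ubiquitin ligases and upstream kinases, and IKK marks IkB for destruction. The freed dimers switch on inflammatory genes together with inhibitors of the pathway itself, among them IkB-alpha and the ubiquitin-editing enzyme A20. A slower, non-canonical arm runs through the kinase NIK and the processing of p100, the product of Nfkb2, and is held down by TRAF3.

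Recovered depth was 36445462 to 59236599 reads per library, with Control 1 the shallowest. Cd74, the targeted gene, was at 593 to 632 TPM in Control and at 63.1 to 65.3 TPM in Knockout. Its deposited value was thus lower in every Knockout library. Its row is 1 of 28 in the table whose values were not whole reads at any single length, and none of those 28 is an NF-kB member. The Cd74 values could not be traced to reads, so how much transcript remained in the Knockout is uncertain. Of 12 macrophage markers 7 had a row, and Mertk, C1qa, C1qb, C1qc and Maf had none. Summed macrophage markers were at 10596 to 11142 TPM in Control and 13941 to 15190 TPM in Knockout. Lyz2 alone was at 4966 to 5622 TPM in Control and 8102 to 9547 TPM in Knockout, and weighs heavily in the sums. Among the 7, Csf1r, Lyz2 and Itgam were called higher and Adgre1 lower, while Cd14, Cd68 and Fcgr1 did not pass. Of 6 neutrophil markers 2 had a row (S100a8 called higher, Csf3r lower), with sums of 16.2 to 17.8 TPM in Control and 23.3 to 29.2 TPM in Knockout. S100a9, Ly6g, Mpo and Elane had no row, and none of the 3 T cell or 3 mast cell markers had a row. Of 5 dendritic cell markers 4 had a row, and their sums were 5.36 to 8.26 TPM in Control and 6.24 to 7.02 TPM in Knockout. The part of these markers in the results below was not tested, and fewer cells of a type cannot be told apart from less RNA per cell.

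Of the 44 members 14 fell, 3 rose and 27 did not pass the test in the Knockout (limma, p adjusted by Benjamini-Hochberg over the whole set of tested rows, threshold 0.05). The falls were Traf1, Nfkbiz, Nfkb2, Nfkbib, Tnfaip3, Tnfaip2, Rel, Otulin, Ikbke, Map3k8, Nfkb1, Zc3h12a, Birc3 and Rela. The rises were Nfkbid, Traf3 and Icam1. Falls numbered 9 without Control 2 and 9 without Control 3, and rises 1 without Control 1 and 1 without Control 3. Falls made up 31.8% of the members against 10.1% of all tested rows, and rises 6.82% against 18.5%. The median log2 fold change of the members was -0.15, beside 0.04 for all tested rows. Of the members 75% had a negative value, against 43.8% of all tested rows.

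Scaling matters to this balance. Among calls over all rows, 64.7% were higher as deposited, 51.5% after median-of-ratios scaling and 48.2% after upper-quartile scaling. Under either scaling 20 of the 44 members fell and 2 rose. Of all tested rows, 13.2% were called lower and 14% higher with median-of-ratios scaling, and 14.3% lower and 13.3% higher with upper-quartile scaling.

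**Figure D1:**
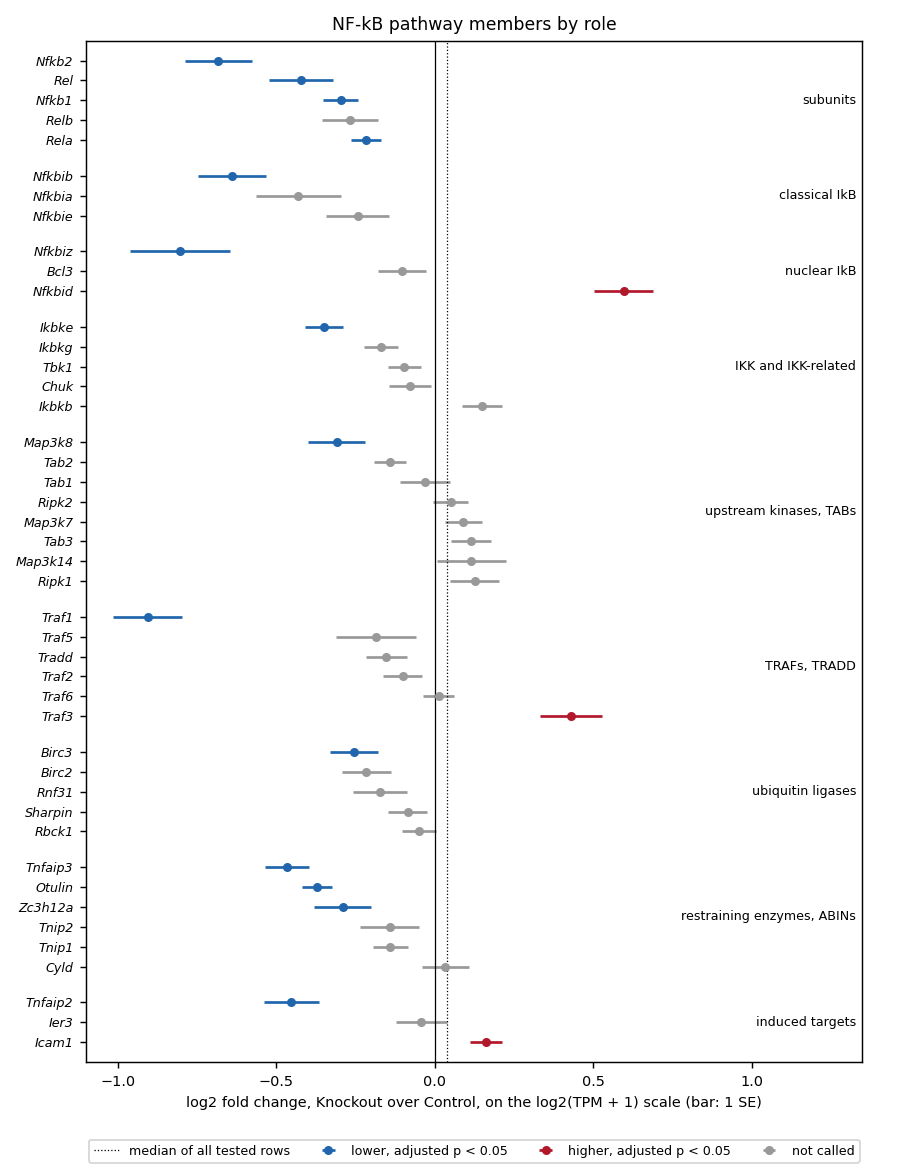
Log2 fold change (Knockout over Control, on the log2(TPM + 1) scale) of the 44 members grouped by role, each point with a bar of 1 SE, coloured by whether limma called it at an adjusted p under 0.05. All 5 subunits lie left of 0, with 4 called lower, while Nfkbid and Traf3 stand apart to the right.

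Groups did not overlap for 27 members, 21 lower and 6 higher in the Knockout. Non-overlap was common in the whole table, at 50% of tested rows (19.8% lower and 30.2% higher). Of the 27, 10 did not pass the test. The libraries within a group were not evenly placed. Control 1 was the highest of the 6 libraries for 12 of the 14 members that fell, and Knockout 3 the lowest for 11 of them. Over the 44 members Control 1 was the highest Control library for 68.2%, against 33.7% of all tested rows, and Knockout 3 the lowest Knockout library for 70.5%, against 44.1%. Without those 2 libraries, an alternative chosen after the data were seen, 14 members fell and 3 rose, and the members' median was -0.09.

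**Figure D2:**
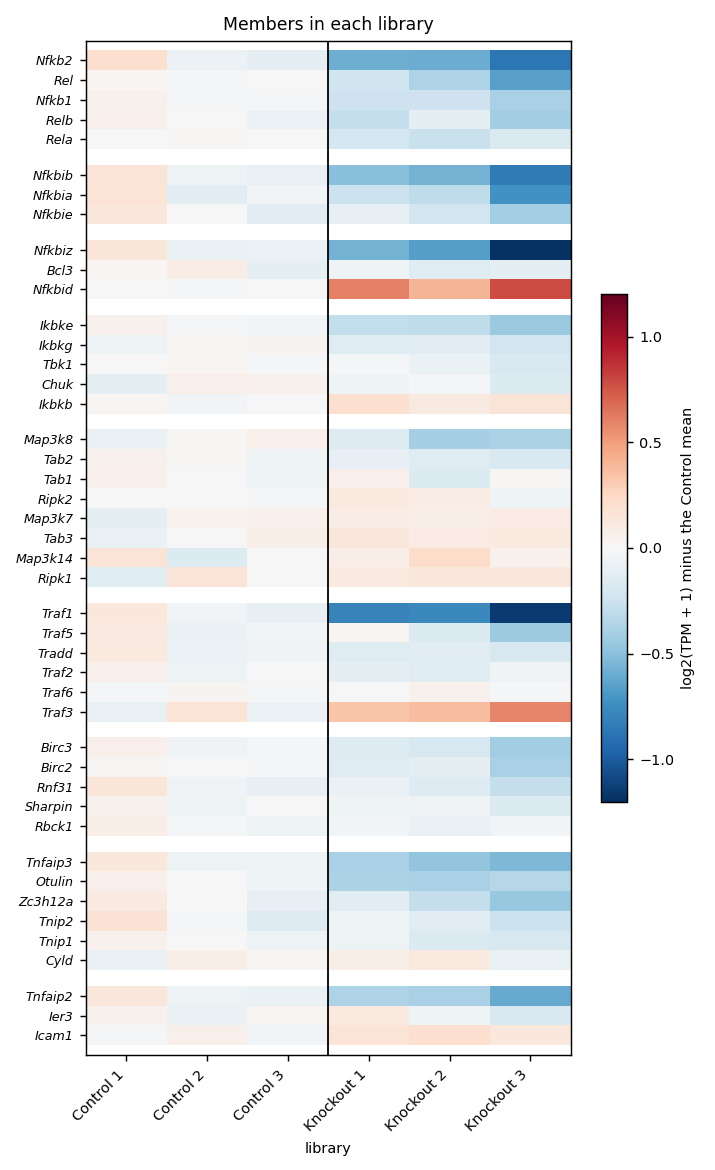
Each member in each library, as log2(TPM + 1) minus the mean of the Control libraries, with rows grouped by role as in the plot of fold changes. Blue is below and red above the Control mean, and Knockout 3 is the library farthest from that mean for 13 of the 17 called members.

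The promoters of several members carry sequences of the kind that NF-kB binds, called kappa-B sites, and these are shown because they were found upstream of members that fell, that rose and that did not pass. RefSeq (GRCm38.p6) gave promoters for 35 of the 44 members, and the 250 bases before each start were searched on both strands. The consensus searched was GGG, a purine, any 2 bases, 2 pyrimidines and CC, and overlapping matches were joined. It was present upstream of 12 of the 35 genes (34.3%), against 8.23% of 27025 genes with such windows. Those genes were not limited to genes expressed here or matched for base composition, so the contrast is not specific to NF-kB. Counted by window it was in 14 of 47 member windows (29.8%), against 7.25% of all 32851 windows. The looser GGGNNNNNCC, which contains the consensus, was found for 29 of the 35 genes (82.9%) and for 48.7% of all genes. Genes with the consensus included 4 of 11 that fell, 2 of 3 that rose and 6 of 21 that did not pass. The stretches below run 5' to 3' on the strand of the gene with up to 20 bases on either side, and the capitals mark the match. They show 1 match per gene for 6 of the 12 genes. Nfkb2, Tnfaip3 and Nfkbid had further matches, some of those of Nfkb2 upstream of other starts.
Nfkbia, chr12:55492648-55492696, minus strand: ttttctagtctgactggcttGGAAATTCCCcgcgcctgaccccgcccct
Nfkb2, chr19:46304678-46304728, plus strand: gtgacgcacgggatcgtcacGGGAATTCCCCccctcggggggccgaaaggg
Rel, chr11:23771031-23771081, minus strand: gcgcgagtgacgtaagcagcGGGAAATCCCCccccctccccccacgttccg
Tnfaip3, chr10:19015411-19015442, minus strand: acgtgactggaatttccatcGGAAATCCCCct
Nfkbid, chr7:30422160-30422209, plus strand: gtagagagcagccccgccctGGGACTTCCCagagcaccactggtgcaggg
Traf3, chr12:111166340-111166369, plus strand: cgcgcgcccaggcggcccgcGGGGATTTCC
Of these 6 genes Nfkb2, Rel and Tnfaip3 fell, Nfkbid and Traf3 rose, and Nfkbia did not pass, so matches of 1 kind sit upstream of members of every outcome. A match describes these letters and is not evidence of binding.

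Among the subunits, 4 of 5 fell and 0 rose, and the groups did not overlap for any of the 5. Over all tested rows 10.1% were called lower and 18.5% higher, and 19.8% were lower without overlap. Nfkb2 encodes p100, which is cut to p52 in the non-canonical arm. It was at 168, 141 and 136 TPM in Control 1 to 3 and at 98.2, 97.1 and 80.4 TPM in Knockout 1 to 3. Every Knockout library was below every Control library, a fall of 38.0% in the mean (log2 fold change -0.68, SE 0.11, limma adjusted p = 0.00603). Exons of Nfkb2 overlap those of Psd (6.52% of its exonic bases) and AC114539.1 (11.6%) on the opposite strand in GENCODE M21. Psd was at 1.85 to 3.64 TPM in the 6 libraries and was called lower as well (log2 fold change -0.48). Opposite-strand exons also overlap those of Icam1 (Gm47079, 11.7%), Tnfaip2 (Gm40578, 6.30%) and Ikbke (Gm28913, 0.721%, and Gm28914, 1.76%). Gm28913 was called lower (log2 fold change -0.46), Gm28914 was not called, and Gm47079 and Gm40578 were not tested. The part of such overlaps in the members' values was not tested.

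Rel encodes c-Rel, a subunit of activated immune cells. Its levels were 81.2, 78.7 and 79.6 TPM in Control and 67.4, 61.6 and 50.3 TPM in Knockout. Control values lay close together and Knockout values were spread, with Knockout 3 lowest (log2 fold change -0.42, SE 0.10, limma adjusted p = 0.0206). The call was lost without Control 1, 2 or 3, at an adjusted p of up to 0.0677.

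Nfkb1, the gene of p105 and p50, was at 93.2, 88.6 and 88.5 TPM in Control and 75.7, 75.5 and 68.6 TPM in Knockout. The fall of 0.30 on the log2 scale (SE 0.06, limma adjusted p = 0.0103) kept its call with any 1 library left out. Rela encodes p65, the main activating subunit of the canonical arm. It was at 54.7, 55.6 and 54.8 TPM in Control and 47.4, 45.7 and 48.6 TPM in Knockout, the smallest difference of the 5 (log2 fold change -0.22, SE 0.05, limma adjusted p = 0.0147). That call was lost without Control 2, Control 3 or Knockout 2, at an adjusted p of up to 0.0588. Relb, the partner of p52, was the lowest subunit at 21.0, 20.1 and 19.0 TPM in Control and 16.3, 18.5 and 14.8 TPM in Knockout. It did not pass the test (log2 fold change -0.27, SE 0.09, limma adjusted p = 0.0580), and was called lower in 6 of 16 alternative settings, with adjusted p from 0.0305 to 0.170.

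Summed over the 5 subunits, transcripts stood at 393 ± 22.1 TPM in Control and 289 ± 22.7 TPM in Knockout (SD, n = 3 each, exact two-sided permutation p = 0.1, the smallest that 3 against 3 allows). The make-up of this sum within a library does not depend on scaling between libraries. It does depend on the lengths used, 12061 bases for Nfkb1 and 4584 for Nfkb2. Recovered reads in Control 1 were 12737 for Nfkb1 and 8739 for Nfkb2, and Nfkb1 had more in every library. The size and rank of the shares are therefore those of TPM only. Nfkb2 held 40.2%, 36.6% and 35.9% of it in Control and 32.2%, 32.5% and 30.6% in Knockout. The difference in its mean share, Knockout minus Control, was -5.81 percentage points, without overlap (exact permutation p = 0.1). Shares of Nfkb1 (22.9 ± 0.598% and 25.4 ± 0.653%), Rela (14.0 ± 0.827% and 16.5 ± 1.79%) and Relb (5.10 ± 0.128% and 5.72 ± 0.442%) had a higher mean in the Knockout, each with exact permutation p = 0.1 (SD, n = 3). The difference in share was 2.42 percentage points for Rela, or 1.39 without Knockout 3, and 0.624 for Relb, or 0.383 without Knockout 2. Shares of a sum are tied to one another, and as a log2 ratio to Rela the differences for Nfkb1 and Relb turned to -0.079 and -0.062. The share of Rel was 20.3 ± 0.854% and 20.6 ± 1.47% (exact permutation p = 0.9, SD, n = 3), and its groups overlapped. With 5 shares compared, no p in this design could pass 0.05.

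**Figure D3:**
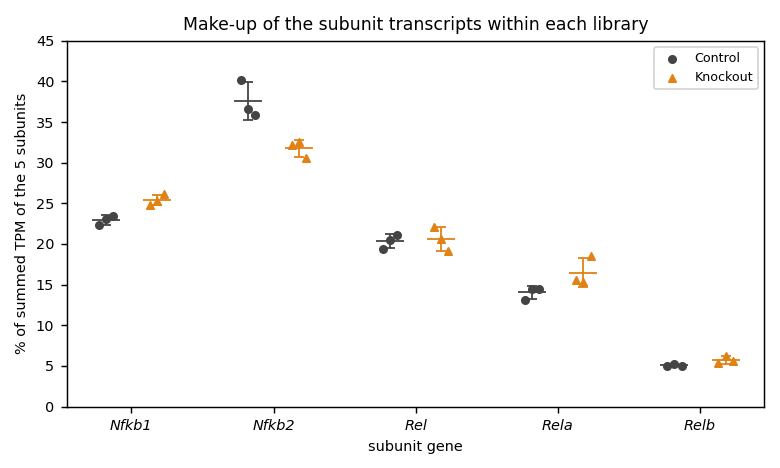
Share of each subunit in the summed TPM of the 5 subunits, in percent, with 1 point per library and the mean and SD of each group of 3. Nfkb2 is the largest share of TPM in every library, at 35.9% to 40.2% in Control and 30.6% to 32.5% in Knockout. That rank depends on gene length, as Nfkb1 had more recovered reads than Nfkb2 in every library.

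Of the 3 classical IkB inhibitors, which hold NF-kB in the cytoplasm, 1 fell (33.3%, beside 10.1% of all tested rows) and 2 did not pass. Nfkbib, the gene of IkB-beta, was at 166, 142 and 139 TPM in Control and 105, 99.9 and 81.8 TPM in Knockout. All Knockout libraries were below all Control libraries (log2 fold change -0.64, SE 0.11, limma adjusted p = 0.00732). Its exons overlap those of Ccer2 (14.5% of its exonic bases) and Sirt2 (1.94%) on the opposite strand, and Sirt2 was called lower as well (log2 fold change -0.38). Nfkbia, the gene of IkB-alpha and the classical feedback inhibitor, had the highest Control mean of the members, with 960, 778 and 836 TPM in Control 1 to 3, and was at 716, 691 and 515 TPM in Knockout. Its groups did not overlap, yet the spread within each was wide, and it missed the threshold (log2 fold change -0.43, SE 0.14, limma adjusted p = 0.0511). It was past the threshold in 7 of 16 alternative settings, with adjusted p from 0.0195 to 0.153. Its log2 fold change was -0.28 without Knockout 3 and -0.20 without both Control 1 and Knockout 3. Nfkbie, the gene of IkB-epsilon, was at 22.7 to 27.5 TPM in Control and 18.6 to 23.3 TPM in Knockout, with overlap.

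The nuclear IkB proteins act on promoters rather than in the cytoplasm, and the 3 genes differed in direction. Nfkbiz, the gene of IkB-zeta, a coactivator of secondary response genes such as Il6, was at 172, 147 and 148 TPM in Control and 104, 97.8 and 67.7 TPM in Knockout. It fell by 0.80 on the log2 scale (SE 0.16, limma adjusted p = 0.0116), with Knockout 3 well below the other two. Nfkbid, the gene of IkBNS, was at 17.8, 17.6 and 17.8 TPM in Control and 27.5, 23.8 and 31.2 TPM in Knockout. The 3 Control libraries were nearly level and every Knockout library was higher, a rise of 54.9% in the mean (log2 fold change 0.60, SE 0.09, limma adjusted p = 0.00602). Bcl3, whose product binds p50 and p52 dimers, was at 13.7 to 16.1 TPM in Control and 13.5 to 14.5 TPM in Knockout and did not pass.

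Of 13 genes of kinases and their partners 2 fell and 0 rose. Falls were 15.4% of them, not far from the 10.1% of all tested rows. Of the 5 IKK and IKK-related genes 1 fell. Ikbke, an inducible IKK-related kinase, was at 51.3, 48.8 and 48.3 TPM in Control and 40.2, 39.7 and 36.0 TPM in Knockout, without overlap (log2 fold change -0.35, SE 0.06, limma adjusted p = 0.00755). The 3 genes of the core IKK complex did not pass. Chuk (IKK-alpha) was at 66.5, 75.0 and 74.2 TPM in Control and 69.1, 71.1 and 63.9 TPM in Knockout, with overlapping groups (log2 fold change -0.08, SE 0.07, limma adjusted p = 0.417). Ikbkb (IKK-beta), the kinase of the canonical arm, was at 11.9, 11.4 and 11.7 TPM in Control and 13.4, 12.6 and 13.0 TPM in Knockout. Its Knockout values were all above its Control values, but it did not pass (log2 fold change 0.15, SE 0.06, limma adjusted p = 0.110). Ikbkg, the gene of the scaffold NEMO, was at 26.7, 27.9 and 28.4 TPM in Control and 25.0, 25.0 and 23.5 TPM in Knockout, just outside the threshold (log2 fold change -0.17, SE 0.05, limma adjusted p = 0.0512). It was called in 5 of 16 alternative settings. Tbk1, the kinase better known for interferon induction, was at 123 to 127 TPM in Control and 110 to 123 TPM in Knockout and did not pass.

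Of the 8 upstream kinases and their TAB partners 1 fell and 7 did not pass, with a median log2 fold change of 0.07. That fall was 12.5% of them, near the 10.1% of all tested rows. Map3k8, the gene of the kinase TPL2, which links LPS to the ERK pathway, was at 12.04, 12.9 and 13.4 TPM in Control and 11.4, 9.44 and 9.59 TPM in Knockout (log2 fold change -0.31, SE 0.09, limma adjusted p = 0.0393). Knockout 1 lay just under the lowest Control library. The call was lost on leaving out any 1 library other than Knockout 1, at an adjusted p of up to 0.122. Map3k7, the gene of TAK1, its partners Tab1, Tab2 and Tab3, the NIK gene Map3k14 and the adaptor kinase genes Ripk1 and Ripk2 had log2 fold changes from -0.14 (Tab2) to 0.13 (Ripk1). Tab2 was called lower in 3 of 16 alternative settings, both scalings among them. Map3k14 was the lowest member at 5.74 to 7.80 TPM over the 6 libraries.

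**Figure D4:**
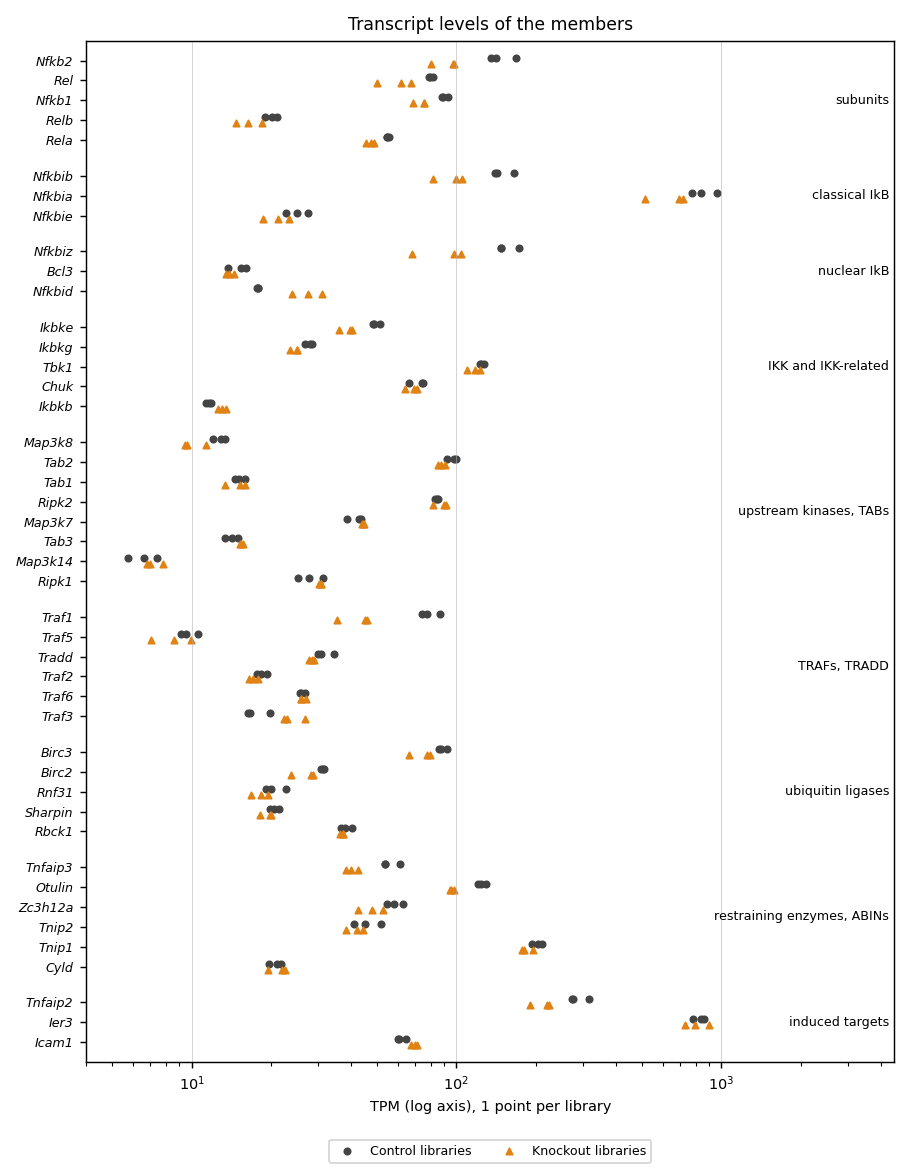
TPM of each member on a log axis, 1 point per library, with Control as circles and Knockout as triangles, grouped by role. Levels run from Map3k14 at 5.74 TPM to Nfkbia at 960 TPM, and 9 of the 44 genes had a Control mean above 100 TPM.

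TRAF proteins carry the signal from receptors to kinases, and the 2 that changed went in opposite directions. Each was 16.7% of the 6 genes of TRAFs and TRADD, beside 10.1% lower and 18.5% higher among all tested rows. Traf1, an inducible TRAF of activated cells, had the largest fall of any member. It was at 87.0, 77.7 and 74.4 TPM in Control and 45.3, 46.1 and 35.4 TPM in Knockout. The groups were far apart, with a mean 47.0% lower in the Knockout (log2 fold change -0.91, SE 0.11, limma adjusted p = 0.00328). Traf3, which keeps NIK and with it the non-canonical arm low, was at 16.3, 19.7 and 16.6 TPM in Control and 22.3, 22.9 and 26.8 TPM in Knockout. It rose by 36.7% in the mean, without overlap (log2 fold change 0.43, SE 0.10, limma adjusted p = 0.0179). The Traf3 call was lost without Control 1 or Control 3, at an adjusted p of up to 0.0657. Traf6, the ubiquitin ligase of Toll-like receptor signalling, was at 25.7 to 26.8 TPM in Control and 25.9 to 27.1 TPM in Knockout, with a log2 fold change of 0.01 (SE 0.05). Traf2, Traf5 and the TNF receptor adaptor gene Tradd had values of -0.10, -0.19 and -0.15 and did not pass.

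The ubiquitin enzymes divide into ligases that build the signalling chains and proteins that trim or bind them. Of 5 ligase genes 1 fell (20%, beside 10.1% of all tested rows). Birc3, the inducible cIAP2, was at 92.2, 85.6 and 87.7 TPM in Control and 79.4, 77.2 and 66.0 TPM in Knockout, without overlap (log2 fold change -0.25, SE 0.08, limma adjusted p = 0.0444). The Birc3 call was lost without Control 1, 2 or 3 or Knockout 2, at an adjusted p of up to 0.128. The log2 fold change of Birc3 was -0.14 without both Control 1 and Knockout 3. Birc2, the gene of cIAP1, was at 30.9 to 31.7 TPM in Control and 23.8 to 28.8 TPM in Knockout and did not pass (log2 fold change -0.22, limma adjusted p = 0.0740). Birc2 was called lower in 3 of 16 alternative settings, both scalings among them. Rnf31, Sharpin and Rbck1, the 3 subunits of the linear ubiquitin ligase LUBAC, had log2 fold changes of -0.17, -0.09 and -0.05, with 0 of 3 past the test.

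Of the 6 genes that restrain the pathway 3 fell and 0 rose, beside 10.1% lower and 18.5% higher among all tested rows. Tnfaip3, the gene of A20, was at 61.1, 53.7 and 53.6 TPM in Control and 42.6, 40.0 and 38.3 TPM in Knockout. All Knockout libraries were lower (log2 fold change -0.47, SE 0.07, limma adjusted p = 0.00559). Otulin, the gene of a deubiquitinase that takes apart the linear chains made by LUBAC, was at 130, 124 and 120 TPM in Control and 95.6, 94.9 and 97.8 TPM in Knockout. The 3 Knockout values were close together and well below Control (log2 fold change -0.37, SE 0.05, limma adjusted p = 0.00370). Zc3h12a, the gene of Regnase-1, an RNase that degrades cytokine mRNAs, was at 63.0, 58.1 and 54.6 TPM in Control and 53.0, 47.8 and 42.5 TPM in Knockout. The groups lay close, and the fall was at the edge of the threshold (log2 fold change -0.29, SE 0.09, limma adjusted p = 0.0493). The Zc3h12a call was lost on leaving out any 1 library other than Knockout 1, at a limma adjusted p of up to 0.143. Its log2 fold change was -0.16 without both Control 1 and Knockout 3. Cyld, a deubiquitinase gene, and Tnip1 and Tnip2, which encode the A20-binding proteins ABIN-1 and ABIN-2, had log2 fold changes of 0.03, -0.14 and -0.14 and did not pass. Tnip1 was called lower in 3 of 16 alternative settings, both scalings among them.

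The 3 target genes did not move together. Tnfaip2, a TNF-inducible gene, was at 318, 277 and 273 TPM in Control and 224, 221 and 189 TPM in Knockout, without overlap (log2 fold change -0.45, SE 0.09, limma adjusted p = 0.0107). Icam1, the adhesion molecule that binds leukocyte integrins, was at 60.8, 64.7 and 60.3 TPM in Control and 69.5, 71.2 and 67.5 TPM in Knockout. Its groups were close but did not overlap (log2 fold change 0.16, SE 0.05, limma adjusted p = 0.0467). The Icam1 call was lost under both scalings, with limma-voom on the recovered reads, and without Control 1, 2 or 3 or Knockout 1 or 2, at an adjusted p of up to 0.147. Ier3, an early response gene of cell survival, was at 784 to 860 TPM in Control and 727 to 897 TPM in Knockout, with overlap (log2 fold change -0.04, SE 0.08). It stood above Nfkbia in every library but Control 1.

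Members listed as NF-kB-induced from other work were set against the members not listed. The list was not checked for completeness, and a gene not listed may still be NF-kB-induced. Of the 20 genes listed as induced, 11 fell, 2 rose (Nfkbid and Icam1) and 7 did not pass, with a median log2 fold change of -0.29. Of the 24 others, 3 fell (Nfkbib, Rela and Otulin), 1 rose (Traf3) and 20 did not pass, with a median of -0.09. Falls were thus 55% and 12.5% of the respective sets, beside 10.1% of all tested rows. Without Control 1, 2 or 3 the falls in the induced set numbered 7 in each case. The list of induced genes was drawn up with earlier results of these data known, and the difference between the sets was not tested. The kappa-B consensus was present for 9 of 15 induced genes with a promoter and for 3 of 20 others, beside 8.23% of all genes searched. How far the list of induced genes itself rests on known kappa-B sites was not examined. Of the 8 genes of the non-canonical arm, 2 fell (Nfkb2 and Birc3), 1 rose (Traf3) and 5 did not pass (Relb, Map3k14, Chuk, Traf2 and Birc2). Falls were 25% and rises 12.5% of the 8, beside 10.1% and 18.5% of all tested rows.

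Other genes of the pathway, from a list of 49 names outside the 44 members, had 45 rows, of which 44 were tested. Of these 9 fell, 7 rose and 28 did not pass, with a median log2 fold change of -0.09. Falls were 20.5% of the tested genes against 10.1% of all tested rows, and rises 15.9% against 18.5%. Rises numbered 3 without Control 1, Control 2 or Knockout 1, 2 without Knockout 2 and 1 without Control 3. The largest falls were in Sqstm1, Peli1 and Malt1. Sqstm1, the gene of the ubiquitin-binding scaffold p62, was at 7022, 5908 and 5925 TPM in Control and 3670, 3425 and 2394 TPM in Knockout (log2 fold change -1.01, SE 0.16, limma adjusted p = 0.00618). Peli1, a ubiquitin ligase gene of Toll-like receptor signalling, was at 79.2 to 86.7 TPM in Control and 35.7 to 50.1 TPM in Knockout (log2 fold change -0.90). Malt1, the gene of a protease that cleaves A20, was at 62.6 to 77.9 TPM in Control and 27.6 to 43.99 TPM in Knockout (log2 fold change -0.87). The largest rises were in Traf4 (0.48), Skp1a (0.34), which encodes a subunit of the ubiquitin ligase that marks phosphorylated IkB, and Tnip3 (0.30), which encodes ABIN-3.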

How the data were processed

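RNA-seq of 6 libraries, 3 Control and 3 Cd74 Knockout, was analysed from 1 deposited table of 17217 rows, whose deposited values were read as TPM (transcript abundance scaled by gene length and library). No header names the unit, which was taken from the values, with column sums of 991721 to 998572. The build GRCm39 and the tool DESeq2 appear, per the submitters' processing notes, with no role stated. The aligner, the counter and its strand setting are not given in the sources used here. No unmapped sample column was present.

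The 13034 rows whose mean reached 1 TPM were compared on log2(TPM + 1) with limma 3.58.1 in R 4.3.3 (eBayes with trend and robust settings). Tests were two-sided and adjusted by Benjamini-Hochberg over all tested rows, at a threshold of 0.05. Fold changes on this scale understate those of low genes. The procedure was tried on simulated data in which a small set of genes changed in random directions. That setting differs from these data, and the simulation is not evidence for the calls above. Reads were recovered from the TPM values with union exon lengths of GENCODE M21, with a tolerance of 0.02 read. All 44 members came out as whole reads, at 430 or more reads in every library. Recovered depth was 36445462 to 59236599 reads per library.

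Within-library shares were compared with exact permutation tests (scipy 1.17.1), whose smallest p for 3 against 3 is 0.1. Samples were grouped by their titles. Samples with the same replicate number did not deviate together (correlations of 0.13, -0.077 and 0.032), so the number was not used as a block. Full values are given for members past the threshold, the 5 subunits, Nfkbia, Chuk, Ikbkb and Ikbkg, and the others are given by range and count. The members, roles and lists were chosen with earlier results of these data known. Alternatives covered pseudocount, filter, scaling, test, block and left-out libraries.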

Additional observations from a re-analysis of the deposited data

How the results depend on the processing

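Of the 17 called members 10 kept their call and direction in all 16 alternatives (Traf1, Nfkbiz, Nfkb2, Nfkbib, Tnfaip3, Tnfaip2, Otulin, Ikbke, Nfkb1 and Nfkbid), and 0 changed direction in any. Of the 27 others 7 were called in at least 1 alternative. With 1 library left out in turn, members called lower numbered 9 to 15 and higher 1 to 3, induced members lower 7 to 12 and higher 1 to 2, other members lower 2 to 3 and higher 0 to 1, and other pathway genes lower 7 to 9 and higher 1 to 5. All genes called then numbered 1312 to 2094 higher and 666 to 1222 lower. The fits with 1 library less have fewer samples. Induced members called higher were 1, not 2, with no filter, under both scalings, with limma-voom, with the replicate block and without trend and robust settings. Other members called lower were 6 under both scalings and limma-voom. Other pathway genes called lower were 15 under both scalings and 14 with limma-voom, and called higher 3 under upper-quartile scaling. The members' median was -0.087 without both Control 1 and Knockout 3, and -0.18 to -0.11 with 1 library left out.

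With a replicate block, 16 members were lower and 2 higher, and 2331 genes were higher and 1380 lower. Samples share only a number, and with the block Relb, Nfkbia and Nfkbie gained a call while Map3k8 and Icam1 lost theirs. Directions of members that did not pass turned for Traf6 (-0.026 under median-of-ratios, -0.041 under upper-quartile, -0.017 under limma-voom, -0.0079 to 0.030 with 1 library left out), Cyld (-0.0045, -0.020 under the same scalings, -0.0062 to 0.096 with 1 left out), Ripk2 (-0.0045 under upper-quartile), Tab1 (-0.078 to 0.037 with 1 left out) and Ier3 (-0.12 to 0.031 with 1 left out, 0.058 without both Control 1 and Knockout 3). As a log2 ratio to Rela in place of a share, Nfkb1 (-0.079), Rel (-0.21) and Relb (-0.062) were lower in the Knockout, because Rela is then the base. The share of Rel differed by -0.44 to 1.03 percentage points with 1 library left out. The cause of the other changes was not tested.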

Other observations

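Some ratios between members within a library, which do not depend on scaling between libraries, were chosen after their values were seen and are given without a test. The ratio of Nfkbiz to Nfkbid, 2 nuclear IkB genes, was 9.65, 8.34 and 8.27 in Control 1 to 3 and 3.78, 4.10 and 2.17 in Knockout 1 to 3. The ratio of Traf1 to Traf3 was 5.33, 3.94 and 4.49 in Control and 2.03, 2.02 and 1.32 in Knockout. Ikbke to Ikbkb was 4.32, 4.29 and 4.14 in Control and 2.99, 3.16 and 2.76 in Knockout. In each of these 3 ratios every Knockout library was below every Control library. That outcome was fixed by the levels given above and adds nothing to them. The first gene of each ratio was lower and the second higher in the Knockout, both without overlap. The ratio of the inhibitor gene Nfkbia to the subunit gene Rela overlapped between groups, at 14.0 to 17.5 in Control and 10.6 to 15.1 in Knockout.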
